A study of Saccharomyces cerevisiae with 8 samples.

Results

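Of the 41 genes described here, 23 encode factors that start or end protein synthesis, or subunits of such factors. The other 18 encode enzymes that load amino acids onto tRNAs, or subunits of such enzymes. All 41 were chosen by gene symbol from the 6002 nuclear protein-coding open reading frames (ORFs) of the R64 reference genome of budding yeast. The rule itself uses no measured value, but earlier results of these data were known when the genes were chosen. In cap-dependent initiation, factors of the eIF4 group bind and unwind the mRNA, eIF2 brings the initiator tRNA, eIF3, eIF1, eIF1A and eIF5 guide the small ribosomal subunit to the start codon, and eIF5B joins the large subunit. The release factors eRF1 and eRF3 free the finished chain at a stop codon. Each aminoacyl-tRNA synthetase charges the tRNAs of 1 amino acid, and in fast-growing yeast all of these genes are housekeeping genes transcribed by RNA polymerase II (RNAPII).

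RNAPII was mapped by chromatin immunoprecipitation and sequencing in W303a cells grown to mid-log phase at 30 °C in SC medium, with the 8WG16 antibody against the largest subunit. The Tfg1-K60,61R-HA strain carries lysine-to-arginine changes at residues 60 and 61 of Tfg1, the largest protein of the general transcription factor TFIIF, which remove its main sites of attachment for the small modifier SUMO. The Tfg1-HA strain carries the same HA tag on Tfg1 without these changes. By the methods of the study, the mutant strain also has an unintended missense substitution in Tfg1, so the lysine changes and that substitution cannot be told apart. Each genotype had 2 immunoprecipitated libraries and 2 input libraries, 8 samples in 4 groups, and the data used were 1 peak list per immunoprecipitation.

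The lists held 1098 and 894 peaks for Tfg1-K60,61R-HA replicates 1 and 2, and 1257 and 1171 peaks for Tfg1-HA replicates 1 and 2. Of 5 genes specific to MATa cells, 4 were occupied in at least 1 list, and 0 of 4 genes specific to MATalpha cells lay under a peak, and the label gives the MATa strain W303a. TFG1 itself lay under no peak. The names of the lists go against their labels: the case of the gene name would give replicate 1 of Tfg1-K60,61R-HA and replicate 2 of Tfg1-HA each other's genotype. An m that follows the gene name in the lower-case names alone runs the same way as the case. The names also hold a number, which is the same for both lists of a labelled genotype, so that number and the labelled genotype cannot be told apart. Labels were kept, every genotype named here is that of the label, and the main counts are given under both assignments.

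ORFs with at least 50% of their coding length under peaks were called occupied. Peaks mark only the stretches where signal exceeded the caller's threshold, so the share of an ORF under peaks is not a density of RNAPII. With 2 lists against 2, the smallest two-sided exact permutation p is 0.333, so no single gene could pass a test at 0.05. Pairs of values are given for replicates 1 and 2 in that order. A gene is described by whether its values in the genotypes overlap. By the methods of the study, the replicates of a strain were independent preparations from cultures.

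The clearest feature of these genes was at their start. In Tfg1-HA their peaks covered most of the first part of the coding sequence, and under Tfg1-K60,61R-HA much of that part was bare, whereas the last part differed less. Among the 41 genes, peaks covered on average 32.5% and 20.5% of the first 25% of the coding sequence (the opening segment) in Tfg1-K60,61R-HA, against 70.7% and 78.2% in Tfg1-HA. For the last 25% (the closing segment) the averages were 53.3% and 40.6% in Tfg1-K60,61R-HA, against 60.1% and 65.5% in Tfg1-HA. Over the 41 genes together the groups did not overlap in either segment. In the closing segment this held for the factors and not for the synthetases. The synthetases averaged 39.6% and 26.9% there in Tfg1-K60,61R-HA, against 36.9% and 55.6% in Tfg1-HA. The measure by segment was added after the data had been seen.

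Of the 38 genes under a peak in any list, 22 had less of the opening segment under peaks in both Tfg1-K60,61R-HA lists than in both Tfg1-HA lists, against 14.5% of the 2386 ORFs under a peak in any list. The count was 0 of 38 in the other direction, against 0.545% of those ORFs. A gene under a peak in Tfg1-HA lists only could come out lower or tied, but not higher. Among the 22 this holds for TIF3, GCD11, HTS1 and FRS2, and ORFs of this kind are also in the 2386. In the closing segment 4 of 38 were lower, against 9.47% of ORFs, and 0 were higher, against 2.47%. When replicate 1 of Tfg1-K60,61R-HA and replicate 2 of Tfg1-HA exchanged labels, 0 of the 38 genes were lower in the opening segment and 0 were higher, while 5.91% of the 2386 ORFs were lower. In the closing segment 1 was then lower and 2 were higher, against 13.2% and 1.09% of ORFs. With the same number of peaks from each list, in the labelled assignment, 12 genes were lower in the opening segment. The share of all ORFs in this setting was not counted. A gene whose values do not overlap as labelled must overlap with exchanged labels, so for the 22 genes lower in the opening segment the outcome of the exchange was fixed in advance. The pattern was thus described under the labelled genotype, with which the number in the list names runs. The exchange cannot show which assignment is right.

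**Figure D1:**
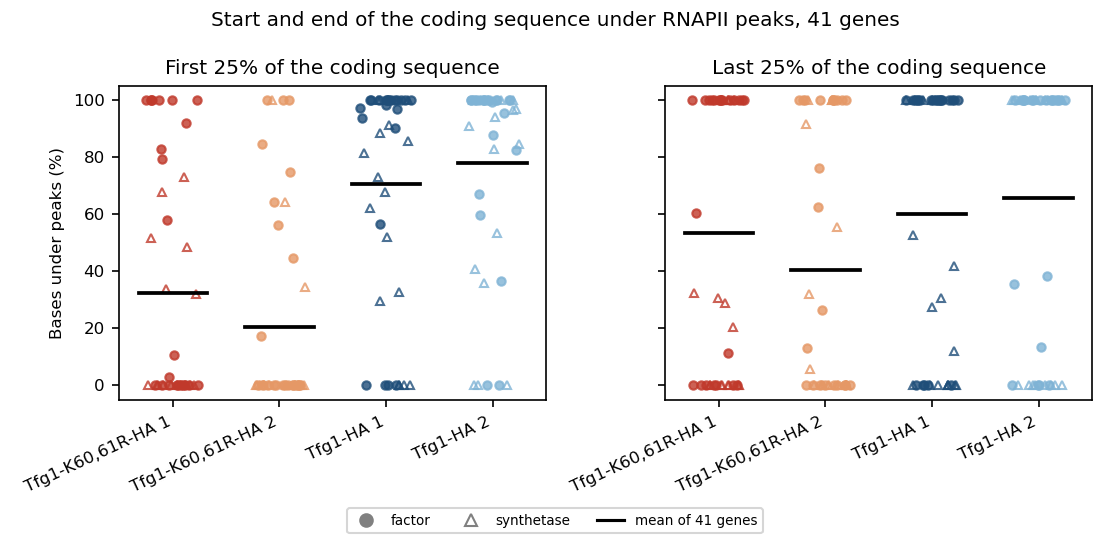
Percent of bases under peaks (vertical axis) in the first 25% (left) and last 25% (right) of the coding sequence of each of the 41 genes, in each of the 4 lists, with the 2 Tfg1-K60,61R-HA lists to the left of the 2 Tfg1-HA lists. Filled circles are factors, open triangles are synthetases and black bars are means, which for the first 25% were 32.5% and 20.5% in Tfg1-K60,61R-HA, against 70.7% and 78.2% in Tfg1-HA.

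TIF5 shows the pattern in full. It encodes eIF5, which makes eIF2 hydrolyse its GTP once the start codon is found, and lies on the plus strand at chrXVI:648704-649921. Its peaks covered 15.1% and 15.7% of the coding length in Tfg1-K60,61R-HA, against 99.3% and 99.8% in Tfg1-HA. The peaks of the Tfg1-HA lists began within the first codons, while those of the Tfg1-K60,61R-HA lists began 1034 and 1027 bp past the first base of the start codon. All 4 peaks ended near each other past the stop codon, 1533 and 1506 bp from the first base in Tfg1-K60,61R-HA, against 1537 and 1557 bp in Tfg1-HA. The sequences at these edges are given from the R64 reference, 5′ to 3′, to show where in the gene each list placed its border, with capitals running from one replicate's first base to the other's. They lie at chrXVI:648704-648741 and chrXVI:649703-649766, both inside the coding exon.
TIF5 in Tfg1-HA: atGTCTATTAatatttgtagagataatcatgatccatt
TIF5 in Tfg1-K60,61R-HA: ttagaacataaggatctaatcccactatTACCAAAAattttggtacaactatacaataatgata

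Within each genotype these borders fell 7 bp apart. At KRS1, which encodes lysyl-tRNA synthetase, the Tfg1-K60,61R-HA peaks began 294 and 291 bp from the first base of the start codon, against 119 and -1 bp in Tfg1-HA. At SUP35, which encodes the release factor eRF3, the Tfg1-K60,61R-HA peaks began at 673 and 650 bp, against 223 and 89 bp in Tfg1-HA. The stretches around the Tfg1-K60,61R-HA borders are coding sequence on the plus strand, at chrIV:525703-525762 and chrIV:808946-809025, with the same use of capitals.
KRS1 in Tfg1-K60,61R-HA: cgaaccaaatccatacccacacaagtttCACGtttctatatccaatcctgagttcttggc
SUP35 in Tfg1-K60,61R-HA: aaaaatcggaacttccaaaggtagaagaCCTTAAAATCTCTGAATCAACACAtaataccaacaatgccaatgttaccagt

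The position of the first border was compared for the 21 genes with a peak in every list. In 20 of the 21 the peak began nearer the 3′ side in both Tfg1-K60,61R-HA lists than in both Tfg1-HA lists, against 54.2% of the 1202 ORFs with a peak in every list. In 0 of 21 it began nearer the 5′ side, against 4.91% of those ORFs. The call set no minimum shift and also counted borders outside the coding sequence. PRT1, among the 20, had its first border at -178 and -192 bp in Tfg1-K60,61R-HA, against -202 and -200 bp in Tfg1-HA. The first border lay at or before the start codon in 5 and 4 of 21 genes in Tfg1-K60,61R-HA, against 11 and 14 in Tfg1-HA. The median border lay 204 and 287 bp inside the coding sequence in Tfg1-K60,61R-HA, against -2 and -19 bp, just outside it, in Tfg1-HA. Over the 1202 ORFs the medians were -69.5 and -30 bp in Tfg1-K60,61R-HA, against -174.5 and -126 bp in Tfg1-HA. With exchanged labels, the peak began nearer the 3′ side in 0 of 21 genes and nearer the 5′ side in 1 of 21, against 25.6% and 2.41% of ORFs. For the 20 genes called as labelled, this too was fixed in advance.

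At the far border the medians were closer. The peak ended nearer the 5′ side in both Tfg1-K60,61R-HA lists in 9 of 21 genes, against 35.8% of ORFs, and nearer the 3′ side in 0 of 21, against 7.32%. Its median position was 316 and 236 bp past the last coding base in Tfg1-K60,61R-HA, against 348 and 352 bp in Tfg1-HA. With exchanged labels, 6 of 21 ended nearer the 5′ side and 0 nearer the 3′ side, against 35.2% and 2.33% of ORFs.

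**Figure D2:**
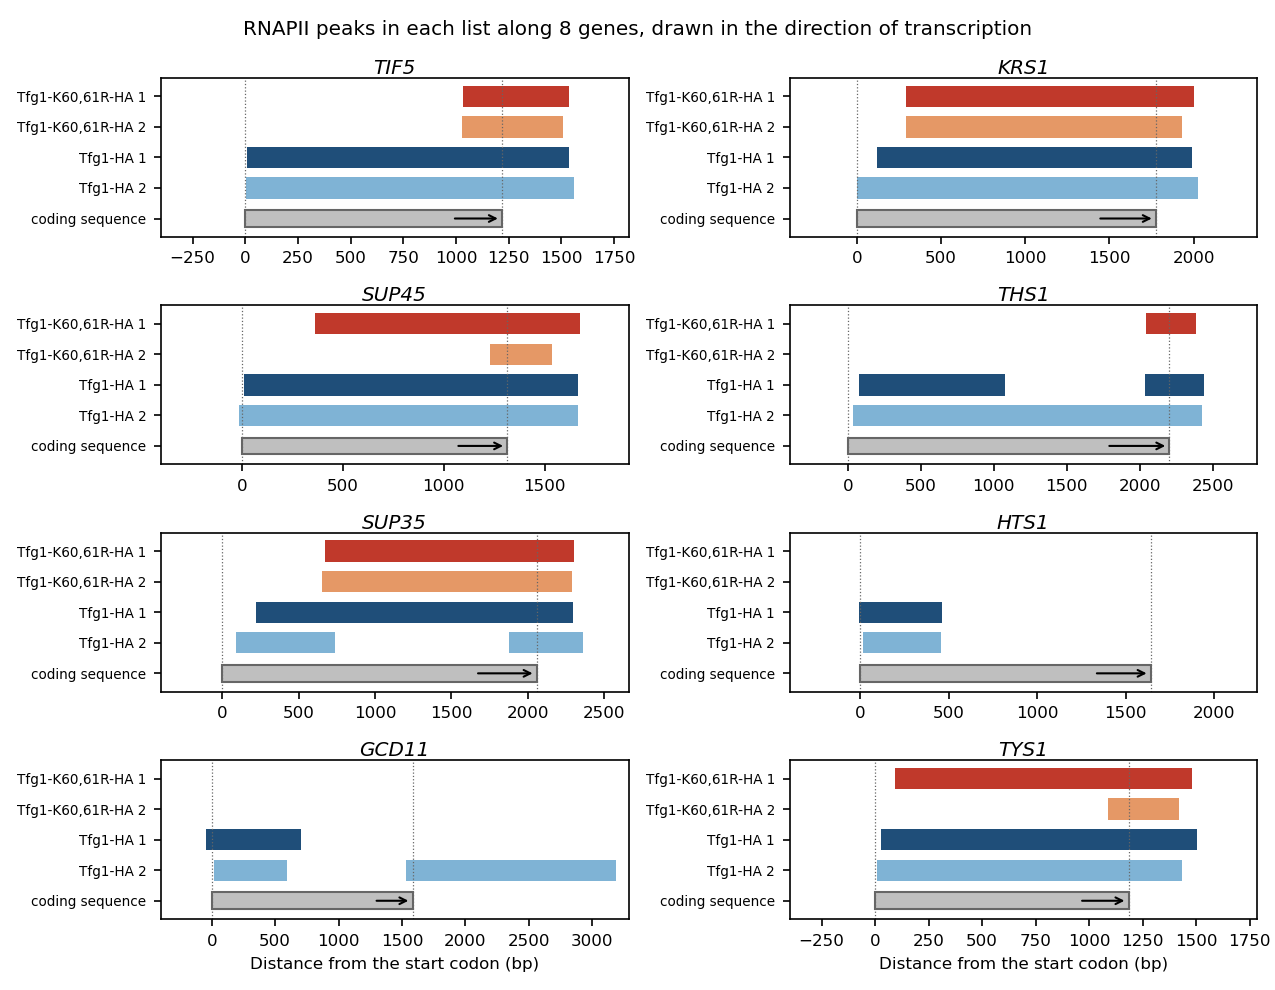
Peaks in each list (coloured bars) along 8 genes, as distance from the first base of the start codon in bp (horizontal axis), with the coding sequence as a grey bar that points in the direction of transcription and the Tfg1-K60,61R-HA lists above the Tfg1-HA lists. At TIF5 the Tfg1-K60,61R-HA peaks begin at 1034 and 1027 bp and those of Tfg1-HA at 9 and 2 bp, and GCD11 and HTS1 have peaks only in Tfg1-HA.

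At 11 of 31 genes whose opening segment was touched by a peak in both Tfg1-HA lists, no peak touched it in either Tfg1-K60,61R-HA list, against 15.2% of 1168 ORFs. They are the factor genes TIF3, TIF5, TIF4631, GCD11, SUP35 and SUP45 and the synthetase genes DED81, HTS1, FRS2, THS1 and VAS1. In the opposite direction the count was 0 of 11, against 0.758% of 792 ORFs. For the closing segment the loss was seen at 2 of 26 genes, CDC33 and GRS1, against 7.47% of 1485 ORFs. With exchanged labels the loss of the opening segment was seen at 0 of 19 genes, against 5% of 1040 ORFs. That of the closing segment was then seen at 0 of 23 genes, against 7.77% of 1531 ORFs.

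The difference was widest at the start of the coding sequence and did not narrow evenly toward the end. In the first 10% of the synthetase genes, peaks covered 2.9% and 6.14% of bases in Tfg1-K60,61R-HA, against 61.7% and 69.7% in Tfg1-HA. In their last 10% the shares were 48.9% and 33% in Tfg1-K60,61R-HA, against 48.6% and 55.6% in Tfg1-HA, and the genotypes overlapped. The factor genes began at 38.5% and 17.8% in Tfg1-K60,61R-HA, against 75.7% and 81.6% in Tfg1-HA. In the sixth of the 10 parts they had 69.6% and 48.2% in Tfg1-K60,61R-HA, against 69.6% and 69.6% in Tfg1-HA. They ended at 65.2% and 53.8% in Tfg1-K60,61R-HA, against 78.3% and 74.9% in Tfg1-HA, so the genotypes met in mid-gene and stood apart again at the end. ORFs occupied in any list began at 61.5% and 48.6% in Tfg1-K60,61R-HA, against 79.5% and 69.5% in Tfg1-HA.

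**Figure D3:**
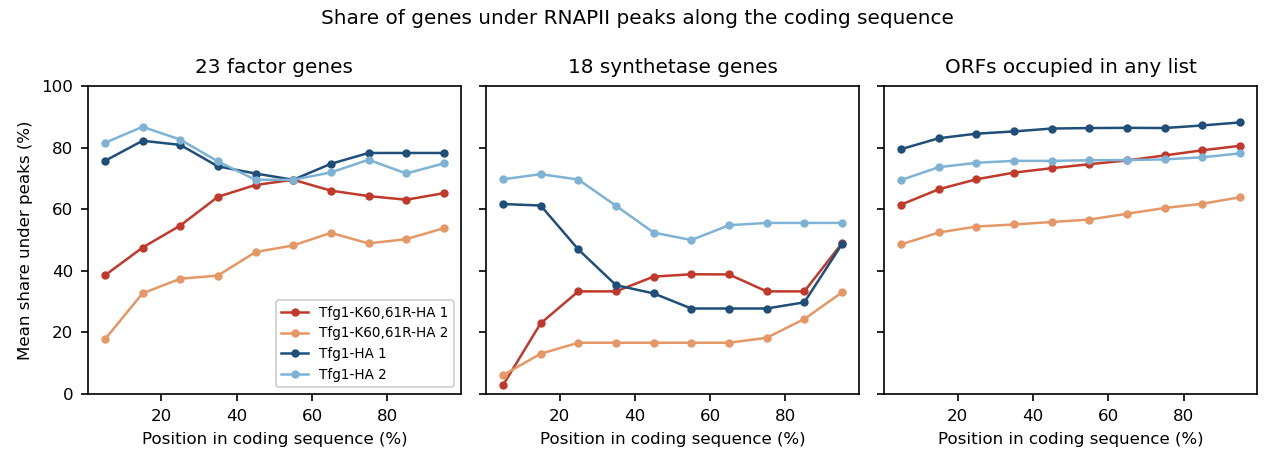
Mean percent of bases under peaks (vertical axis) in 10 equal parts of the coding sequence from start to stop (horizontal axis, percent), for the 23 factor genes, the 18 synthetase genes and all ORFs occupied in any list. Each line is 1 list, and at the synthetase genes the first point is 2.9% and 6.14% in Tfg1-K60,61R-HA, against 61.7% and 69.7% in Tfg1-HA.

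Over the whole coding length, 22 and 15 of the 41 genes were occupied in Tfg1-K60,61R-HA replicates 1 and 2, against 16.9% and 12.7% of all 6002 ORFs. In Tfg1-HA replicates 1 and 2, 22 and 26 were occupied, against 19.9% and 17.3% of all ORFs. The count averaged 18.5 ± 4.9 in Tfg1-K60,61R-HA, against 24 ± 2.8 in Tfg1-HA (SD, n = 2 each), and the range of the genotypes met at 22. The difference in this mean count was -5.5 as labelled and -1.5 with exchanged labels. By class, occupied factors numbered 15 and 12 of 23 in Tfg1-K60,61R-HA, against 16 and 17 in Tfg1-HA. Occupied synthetases numbered 7 and 3 of 18 in Tfg1-K60,61R-HA, against 6 and 9 in Tfg1-HA.

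In all 4 lists 14 genes were occupied, against 10.8% of ORFs, and 13 were occupied in none, against 77.2%. Of the 137 ribosomal protein genes, 137 and 136 were occupied in Tfg1-K60,61R-HA, against 137 and 137 in Tfg1-HA. Of the 21 genes occupied in both Tfg1-HA lists, 14 were also occupied in each Tfg1-K60,61R-HA list, against 68% of 957 ORFs. TIF5 and THS1 were occupied in each Tfg1-HA list and in neither Tfg1-K60,61R-HA list, 2 of 41, against 1.73% of ORFs. This count was 7 without Tfg1-K60,61R-HA replicate 1 and 6 without Tfg1-HA replicate 1. The share of all ORFs was not counted with a list left out, so this rise is no result about these genes. The opposite was seen at 0 of 41, against 0.15% of ORFs. With exchanged labels these counts were 0 and 0, which was fixed in advance for TIF5 and THS1, and the share of all ORFs was not counted.

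Mean coverage of the factors was 60.1% and 42.6% in Tfg1-K60,61R-HA, against 76.3% and 76% in Tfg1-HA. Mean coverage of the synthetases was 32.4% and 17.8% in Tfg1-K60,61R-HA, against 40% and 59.6% in Tfg1-HA. Coverage was lower in each Tfg1-K60,61R-HA list at 22 of 41 genes (12 factors and 10 synthetases), against 8.86% of all ORFs, and higher at 0, against 1.17%. Since an ORF without a peak cannot differ, a closer base is the 2386 ORFs under a peak in any list, where 22 of 38 stand against 22.3%. Of these 22, TIF3, GCD11, FUN12, GRS1, HTS1 and FRS2 lay under a peak in Tfg1-HA lists only and could not have been higher. With the same number of peaks from each list, 14 were lower, and the share of all ORFs in this setting was not counted. With exchanged labels 0 of 38 were lower and 2 higher, against 18.9% and 1.59% of ORFs. None of the 22 genes lower as labelled could be called under the exchange. The mean difference, Tfg1-K60,61R-HA minus Tfg1-HA, was -24.8 percentage points for the factors as labelled and -8.91 with exchanged labels, and for the synthetases -24.6 and 2.51.

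**Figure D4:**
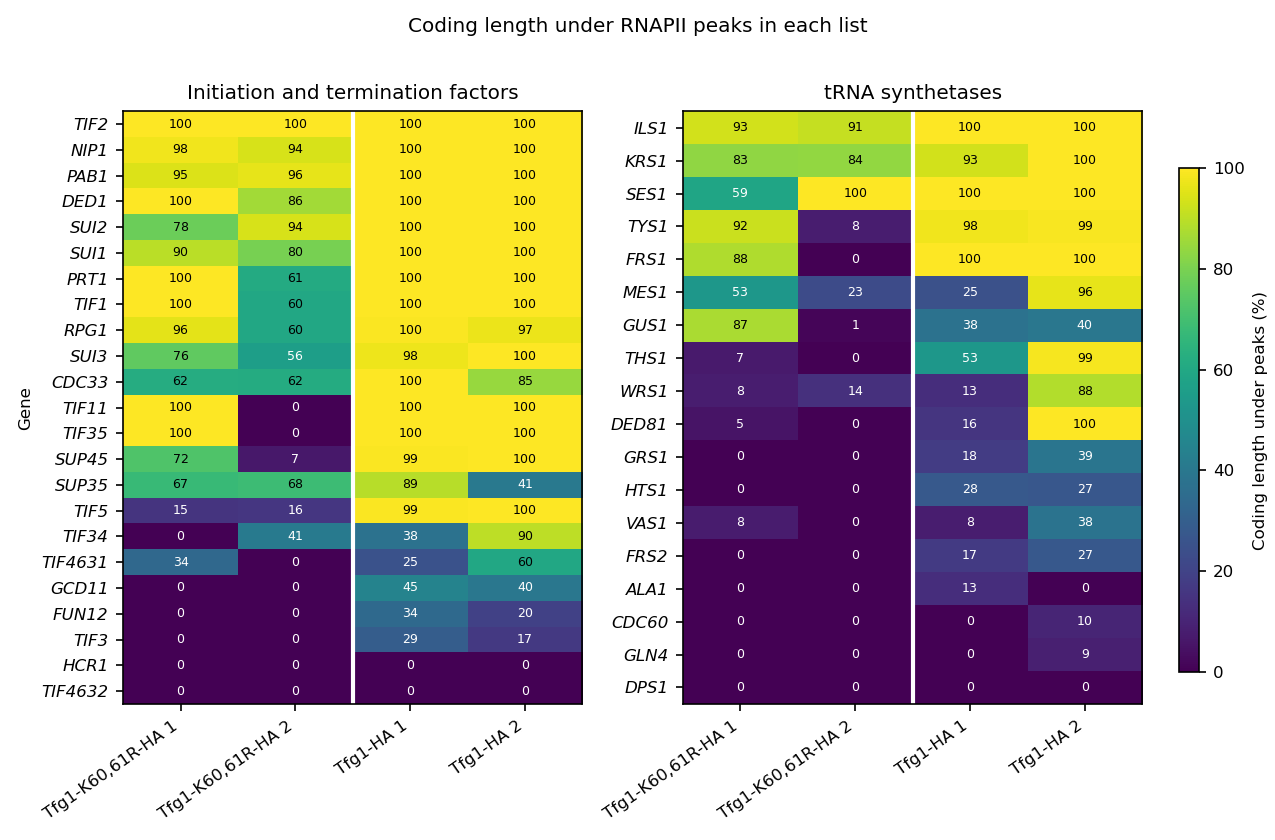
Percent of the coding length under peaks for each of the 23 factor genes (left) and 18 synthetase genes (right), with 1 column per list, the Tfg1-K60,61R-HA lists to the left of the white line and the Tfg1-HA lists to its right. Genes are ordered by their mean over the lists, and at 22 of the 41 both Tfg1-K60,61R-HA values were below both Tfg1-HA values.

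Among the factors that bind and unwind the mRNA, the helicase genes TIF1 and TIF2 (both eIF4A) and DED1, the cap-binding eIF4E gene CDC33 and the poly(A)-binding protein gene PAB1 were occupied in every list. CDC33 had 61.8% and 61.5% of its length under peaks in Tfg1-K60,61R-HA, against 100% and 84.6% in Tfg1-HA. Most of its uncovered part lay at its end, where the closing segment was 0% and 0% covered in Tfg1-K60,61R-HA, against 100% and 38.5% in Tfg1-HA. Its peaks also began nearer the 3′ side, at -28 and 70 bp from the first base of the start codon in Tfg1-K60,61R-HA, against -186 and -138 bp in Tfg1-HA. The opening segment was 100% and 56.2% covered in Tfg1-K60,61R-HA, against 100% and 100% in Tfg1-HA. PAB1 had 94.9% and 96.1% in Tfg1-K60,61R-HA, against 100% and 100% in Tfg1-HA. DED1 had 100% and 86.2% in Tfg1-K60,61R-HA, against 100% and 100% in Tfg1-HA, so the genotypes met.

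TIF1 and TIF2 encode the same protein, and reads from one can be placed on the other. Of their 1188 coding bases only 6 differ, and the longest stretch without a difference is 644 bp. A window of 90 bases with the densest differences is shown from R64, at chrXI:555167-555256 on the plus strand for TIF1 and chrX:154422-154511 on the minus strand for TIF2, with the 2 differing bases in capitals.
TIF1: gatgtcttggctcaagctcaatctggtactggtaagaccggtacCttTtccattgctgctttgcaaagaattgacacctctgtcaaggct
TIF2: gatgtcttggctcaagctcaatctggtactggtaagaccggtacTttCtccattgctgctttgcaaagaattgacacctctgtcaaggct

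TIF1 had 100% and 60.1% of its length under peaks in Tfg1-K60,61R-HA, against 100% and 100% in Tfg1-HA. TIF2 was fully covered in all 4 lists. The peak on TIF1 also covered at least 50% of UTP30 and KTR2 in every list, so its fold belongs to the whole stretch. Within each list, ORFs under a peak were ranked by the fold ratio of their peaks, given here as a percentile. TIF1 stood at the 69.7 and 70.4 percentiles in Tfg1-K60,61R-HA, against 72.8 and 66.8 in Tfg1-HA, the highest mean among the factors. TIF2 stood at 47.4 and 18.7 in Tfg1-K60,61R-HA, against 50.9 and 57.8 in Tfg1-HA, and its genotypes did not overlap.

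The other paralog pair, the scaffold eIF4G genes TIF4631 and TIF4632, were unlike each other. TIF4632 lay under no peak in any list. TIF4631 had 34% and 0% of its length under peaks in Tfg1-K60,61R-HA, against 25% and 60.1% in Tfg1-HA. Its opening segment had 0% and 0% in Tfg1-K60,61R-HA, against 93.7% and 100% in Tfg1-HA. In Tfg1-K60,61R-HA replicate 1 its only peak lay in mid-gene, 1254 to 2224 bp from the start, with a fold of 1.18. TIF3, which encodes the helicase cofactor eIF4B, had short peaks at its start in Tfg1-HA alone, with 0% and 0% covered in Tfg1-K60,61R-HA, against 29.4% and 16.7% in Tfg1-HA.

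The genes for eIF2, which carries the initiator tRNA, split by subunit. SUI2, the alpha subunit gene, had 77.7% and 93.8% in Tfg1-K60,61R-HA, against 100% and 100% in Tfg1-HA. SUI3, the beta subunit gene, had 75.8% and 56.1% in Tfg1-K60,61R-HA, against 97.6% and 100% in Tfg1-HA. GCD11, the gamma subunit gene at chrV:205251-206834, was occupied in no list, with 0% and 0% in Tfg1-K60,61R-HA, against 44.6% and 39.7% in Tfg1-HA. All 3 had less of the opening segment covered in Tfg1-K60,61R-HA.

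SUI2 shared a strong peak with its neighbours in 1 list. In Tfg1-K60,61R-HA replicate 1 its peak ran on over MHO1 and TDH2, a gene for the glycolytic enzyme glyceraldehyde-3-phosphate dehydrogenase, and had a fold of 11.8. In the other lists the peak on SUI2 stood alone, with a fold of 1.27 in Tfg1-K60,61R-HA replicate 2 and 1.37 in both Tfg1-HA lists. The percentiles were 99 and 3.36 in Tfg1-K60,61R-HA, against 21.7 and 23.5 in Tfg1-HA.

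The genes of eIF1 and eIF1A, which take part in the search for the start codon, and of eIF5B, which acts after it, gave mixed values. SUI1, which encodes eIF1, was occupied in every list, with 89.6% and 79.5% in Tfg1-K60,61R-HA, against 100% and 100% in Tfg1-HA. TIF11, which encodes eIF1A, had 100% and 0% in Tfg1-K60,61R-HA, against 100% and 100% in Tfg1-HA. FUN12, the eIF5B gene, was occupied in no list, with 0% and 0% in Tfg1-K60,61R-HA, against 34.2% and 19.5% in Tfg1-HA. At TIF11 a single Tfg1-K60,61R-HA list stood apart from the other 3.

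Among the eIF3 genes the large core subunits NIP1, PRT1 and RPG1 were occupied in every list and the small ones were not. NIP1 had 98% and 94% in Tfg1-K60,61R-HA, against 100% and 100% in Tfg1-HA. PRT1 had 100% and 61.3% in Tfg1-K60,61R-HA, against 100% and 100% in Tfg1-HA. RPG1 had 95.8% and 60.1% in Tfg1-K60,61R-HA, against 99.6% and 97% in Tfg1-HA. The genotypes did not overlap at NIP1 and RPG1 and met at PRT1.

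TIF35 had 100% and 0% in Tfg1-K60,61R-HA, against 100% and 100% in Tfg1-HA, under a peak it shares with BNA7. TIF34 had 0% and 41% in Tfg1-K60,61R-HA, against 37.7% and 89.9% in Tfg1-HA. HCR1, a loosely bound eIF3 subunit gene, lay under no peak. None of the small subunit genes was occupied in Tfg1-K60,61R-HA replicate 2.

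Neither release factor gene had a peak over its opening segment in a Tfg1-K60,61R-HA list. SUP45, the eRF1 gene at chrII:530869-532182 on the minus strand, had 72.5% and 6.62% of its length under peaks in Tfg1-K60,61R-HA, against 99.3% and 100% in Tfg1-HA. Its opening segment was 0% and 0% covered in Tfg1-K60,61R-HA, against 97.3% and 100% in Tfg1-HA. SUP35 had 67.3% and 68.4% in Tfg1-K60,61R-HA, against 89.2% and 40.6% in Tfg1-HA, so over the whole length the genotypes overlapped. Its opening segment did not overlap, with 0% and 0% in Tfg1-K60,61R-HA, against 56.6% and 82.7% in Tfg1-HA.

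Only 3 synthetase genes were occupied in every list. ILS1, for isoleucine, had 93.3% and 91.1% in Tfg1-K60,61R-HA, against 100% and 100% in Tfg1-HA. KRS1, for lysine, had 83.4% and 83.6% in Tfg1-K60,61R-HA, against 93.3% and 100% in Tfg1-HA. SES1, for serine, had 58.7% and 100% in Tfg1-K60,61R-HA, against 100% and 100% in Tfg1-HA. SES1 shared its peak with the ribosomal protein gene RPS11A in every list.

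Another 7 synthetase genes were occupied in some lists. THS1, for threonine, at chrIX:212499-214703, had 7.21% and 0% in Tfg1-K60,61R-HA, against 53% and 98.5% in Tfg1-HA. TYS1, for tyrosine, had 92% and 8.02% in Tfg1-K60,61R-HA, against 97.8% and 99.2% in Tfg1-HA. DED81, for asparagine, had 5.17% and 0% in Tfg1-K60,61R-HA, against 15.6% and 100% in Tfg1-HA. It shared its peak with ARG4 in Tfg1-K60,61R-HA replicate 1, and with ARG4 and YHR020W in Tfg1-HA replicate 2. THS1, TYS1 and DED81 did not overlap between genotypes, although the distance between the replicates of a genotype was large at each.

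WRS1, for tryptophan, had 8.08% and 13.9% in Tfg1-K60,61R-HA, against 13.2% and 88.4% in Tfg1-HA. MES1, for methionine, had 52.9% and 22.9% in Tfg1-K60,61R-HA, against 24.8% and 96.2% in Tfg1-HA. GUS1, for glutamate, had 87.1% and 1.41% in Tfg1-K60,61R-HA, against 37.6% and 39.6% in Tfg1-HA. At these 3 genes the genotypes overlapped, and GUS1 was occupied only in Tfg1-K60,61R-HA replicate 1.

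The 2 subunits of phenylalanyl-tRNA synthetase work as a complex, but their genes had different peaks. FRS1, the beta subunit gene, had 87.9% and 0% in Tfg1-K60,61R-HA, against 100% and 100% in Tfg1-HA, under a long peak that also held the ribosomal protein gene RPL22A. FRS2, the alpha subunit gene, had 0% and 0% in Tfg1-K60,61R-HA, against 17% and 27.4% in Tfg1-HA. At each of them the Tfg1-K60,61R-HA values were below the Tfg1-HA values.

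Of the 8 synthetase genes occupied in no list, several had a short peak at the start in Tfg1-HA alone. HTS1, for histidine, lies at chrXVI:637379-639019 on the minus strand and had 0% and 0% in Tfg1-K60,61R-HA, against 28% and 27.1% in Tfg1-HA. Its Tfg1-HA peaks ended 459 and 457 bp from the first base of the start codon, 2 bp apart, and the coding sequence at this border is shown as read on the minus strand, chrXVI:638532-638590.
HTS1 in Tfg1-HA: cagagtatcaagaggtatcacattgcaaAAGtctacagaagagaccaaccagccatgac

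VAS1, for valine, had 7.66% and 0% in Tfg1-K60,61R-HA, against 8.14% and 38.2% in Tfg1-HA. Its peaks lay at opposite ends, with the opening segment 0% and 0% covered in Tfg1-K60,61R-HA, against 32.6% and 91.1% in Tfg1-HA. GRS1, for glycine, had 0% and 0% in Tfg1-K60,61R-HA, against 17.9% and 38.7% in Tfg1-HA, in part from a peak that ran in from TEF2, an elongation factor gene. ALA1, GLN4 and CDC60, for alanine, glutamine and leucine, were each touched by a peak in a single Tfg1-HA list, over 13%, 8.97% and 10.2% of their length. DPS1, for aspartate, lay under no peak.

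Peaks on these genes were weak. The fold ratio deposited with each peak had a median of 1.34 and 1.36 over the genes' peaks in Tfg1-K60,61R-HA, against 1.40 and 1.41 in Tfg1-HA. Over all peaks the medians were 1.44 and 1.49 in Tfg1-K60,61R-HA, against 1.5 and 1.48 in Tfg1-HA. Of 133 peaks on these genes in all lists, 18 had a fold of at least 2, and 16 of those also covered at least 50% of another ORF. When only peaks with a fold of at least 2 were kept, 4 genes in place of 22 had lower coverage in both Tfg1-K60,61R-HA lists. The share of all ORFs in this setting was not counted. The part of nearness to the caller's threshold in the missing opening segments was not tested.

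Of the 21 genes with a peak in every list, 11 had a lower fold percentile in both Tfg1-K60,61R-HA lists, against 43.9% of 1202 ORFs, and 1 had a higher one, against 9.65%. With exchanged labels, 3 were lower and 1 higher, against 28% and 2.25% of ORFs. The lowest differences in mean percentile among the 21, Tfg1-K60,61R-HA minus Tfg1-HA, were -41.4 at CDC33, -24.7 at RPG1, -24.1 at KRS1, -21.3 at TIF2 and -20.4 at PAB1, and the genotypes overlapped at RPG1 alone of these 5. The difference was above 0 at SUI2 (28.5), GUS1 (14.4), TIF5 (4.30) and TIF1 (0.29), of which only GUS1 did not overlap. CDC33 stood at 6.59 and 3.14 in Tfg1-K60,61R-HA, against 45.1 and 47.5 in Tfg1-HA, and had the widest gap between genotypes. RPG1 stood at 81.7 and 31 in Tfg1-K60,61R-HA, against 84.4 and 77.8 in Tfg1-HA, on peaks that ran on over the cell wall gene ECM33 in every list.

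KRS1 stood at 19.8 and 6.68 in Tfg1-K60,61R-HA, against 28.7 and 45.9 in Tfg1-HA. PAB1 stood at 26 and 19.4 in Tfg1-K60,61R-HA, against 39.1 and 47 in Tfg1-HA. GUS1 was the gene with a higher percentile, at 23.3 and 22.8 in Tfg1-K60,61R-HA, against 10.3 and 7.09 in Tfg1-HA. A share of lower genes near that of all ORFs is no result about these genes.

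**Figure D5:**
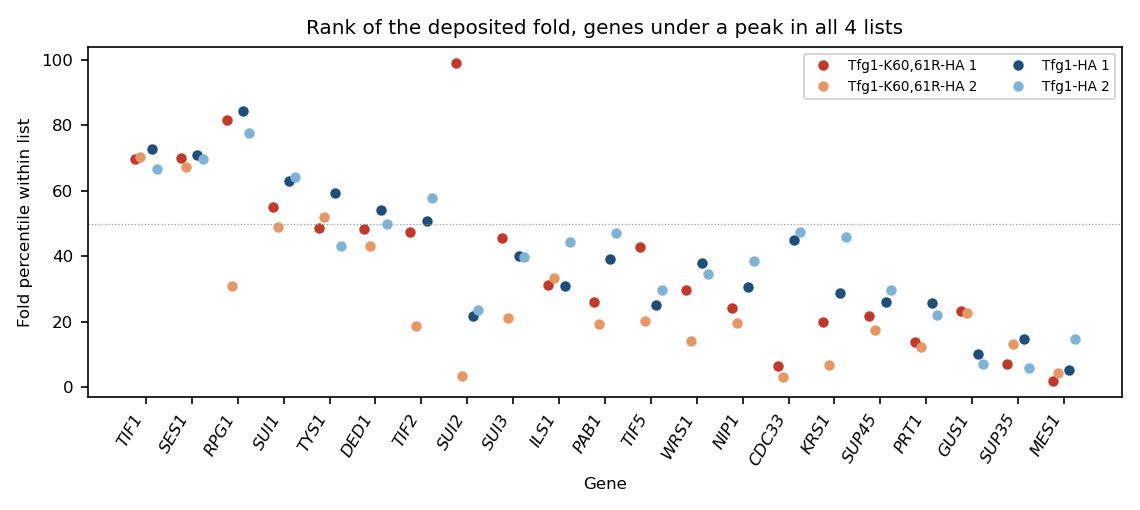
Percentile of the deposited fold within each list (vertical axis, 0 lowest) for the 21 genes under a peak in all 4 lists, ordered by their mean, with the Tfg1-K60,61R-HA lists to the left of the Tfg1-HA lists at each gene. SUI2 ranges from 3.36 in Tfg1-K60,61R-HA replicate 2 to 99 in replicate 1, where its peak ran on over TDH2.

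Beside TIF1 and RPG1, the genes with the highest mean percentile of their class were SUI1, GLN4, SES1 and FRS1. SUI1 stood at 55.2 and 48.9 in Tfg1-K60,61R-HA, against 62.9 and 64.2 in Tfg1-HA. SES1 stood at 70.1 and 67.4 in Tfg1-K60,61R-HA, against 71.1 and 69.8 in Tfg1-HA. FRS1 stood at 57.5 in Tfg1-K60,61R-HA replicate 1, against 62 and 64.7 in Tfg1-HA, and GLN4 at 77 in Tfg1-HA replicate 2 alone, under a peak that covered RPS28A. These 3 synthetase genes all shared a peak with a ribosomal protein gene.

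At the low end, TIF4631 stood at 1.28 in Tfg1-K60,61R-HA replicate 1, against 4.58 and 6.4 in Tfg1-HA. TIF35 stood at 3.69 in Tfg1-K60,61R-HA replicate 1, against 6.33 and 12.8 in Tfg1-HA. FUN12 stood at 4.48 and 6.34 in Tfg1-HA and had no peak in the others. MES1 stood at 1.78 and 4.44 in Tfg1-K60,61R-HA, against 5.14 and 14.8 in Tfg1-HA, VAS1 at 3.36 in Tfg1-K60,61R-HA replicate 1, against 7.23 and 6.77 in Tfg1-HA, and ALA1 at 5.67 in Tfg1-HA replicate 1.

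A promoter feature that the choice by symbol did not use recurs in many, but not all, of the 41 genes. In the 250 bases before the start codon, 25 of the 41 genes hold the letters AAAATTTT, the core of the RRPE element found before many ribosome synthesis genes, against 8.65% of all 6002 ORFs. These letters read the same on both strands. They are in 15 of 23 factor genes and 10 of 18 synthetase genes, at a median of -159 bp and between -238 and -68 bp from the start codon. The PAC letters GATGAG, on either strand, are in 9 of 41, against 17% of all ORFs. The letters TGACTCA, bound by the amino acid starvation regulator Gcn4, are in 0 of 41 on either strand, against 2.17% of all ORFs. No match of one motif overlapped a match of another in these 41 genes.

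Examples are shown from R64, each 30 bases read toward the gene, for genes whose opening segment was touched in both Tfg1-HA lists alone, with the RRPE letters in capitals. They lie at chrXVI:648484-648513 for TIF5, chrII:532332-532361 for SUP45, chrV:205105-205134 for GCD11, chrIX:212336-212365 for THS1 and chrVII:672062-672091 for VAS1.
TIF5 upstream: gtaaatagtgaAAAATTTTcatcgcgaagt
SUP45 upstream: accctgaatgaAAAATTTTttcagaaatcc
GCD11 upstream: ttgccattgaaAAAATTTTcatagaatagc
THS1 upstream: tatcttgctaaAAAATTTTtttcgaggaat
VAS1 upstream: accgcgctgaaAAAATTTTtttagaagagt

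All 25 genes with the RRPE letters lay under a peak in some list, and 17 of them had a lower opening segment in both Tfg1-K60,61R-HA lists. Of the 16 genes without the letters, 13 lay under a peak and 5 had a lower opening segment. Over all ORFs, 255 of 519 with the letters and 2131 of 5483 without them lay under a peak in some list. Among the ORFs under a peak other than the 41 genes, the opening segment was lower in each Tfg1-K60,61R-HA list at 15.2% of the 230 with the letters and at 13.7% of the 2118 without them. The opening segment of the 25 genes averaged 29.6% and 19.1% in Tfg1-K60,61R-HA, against 80.1% and 88.2% in Tfg1-HA. That of the other 16 averaged 37.1% and 22.7% in Tfg1-K60,61R-HA, against 56% and 62.6% in Tfg1-HA. For the 13 of these under a peak it averaged 45.7% and 28% in Tfg1-K60,61R-HA, against 68.9% and 77% in Tfg1-HA. A match of letters is a description of the sequence and says nothing of what binds there.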

How the data were processed

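RNAPII immunoprecipitates and inputs of 2 strains were sequenced, and 1 peak list per immunoprecipitate was analysed. The submitters' processing notes name Bowtie2 2.3.5.1, MACS2 2.2.7.1 and the sacCer3 build. Peaks were called in each library separately. The deposited lists give each peak a fold ratio of signal over background computed by the authors, and a p-value and a q-value that the authors deposited as −log10. No read counts were used here, so the depth of each library is unknown, no interval for counting error can be given, and the differential binding test of the study was not run. Of 1992 rows deposited for Tfg1-K60,61R-HA replicate 1, 894 repeated the list of Tfg1-K60,61R-HA replicate 2 and were dropped.

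ORFs ran from the first to the last coding base of the R64 annotation. For each list, the percent of each ORF under peaks and its fold, averaged over peaks by overlap, were computed, and folds were ranked among ORFs with at least 1 bp under a peak. Genotypes were compared by whether their lists overlapped, over all 6002 ORFs. Python 3.11.15, numpy 2.4.6, pandas 2.3.3 and matplotlib 3.10.9 were used, and the coverage code was tested on simulated data. Genes and lists were chosen with earlier results of these data known. Every gene is accounted for, and values in each list are given for genes occupied in some lists only, the 3 highest and 3 lowest percentiles of each class, the 5 largest percentile differences in each direction, paralog and subunit pairs, and genes under no peak, with others added after their values were seen. Alternatives changed the call of an occupied ORF, the peak threshold, the list length, the repeated rows, the libraries, the labels, the replicate block, the 2 eIF4A genes and the fold of an ORF. Segments and borders were added after the data had been seen.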

Additional observations from a re-analysis of the deposited data

How the results depend on the processing

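The labels of replicate 1 of Tfg1-K60,61R-HA and replicate 2 of Tfg1-HA were exchanged. The difference in mean coverage became -8.91 points for factors and 2.51 for synthetases, that of the opening segment became -2.26 in place of -47.9, and that in median percentile became 0.23 for factors and 4.20 for synthetases. The count of genes occupied in both Tfg1-HA lists only, those lower in coverage, those lower in the opening segment, and those whose peak begins nearer the 3′ side all became 0. For the genes called as labelled, this was fixed in advance. Coverage then turned higher in Tfg1-K60,61R-HA at TIF5 (0.57 points), SUI2 (8.03), PAB1 (0.63), DED81 (39.6), GRS1 (10.4), KRS1 (3.43), FRS2 (5.19), THS1 (19.2), VAS1 (11.2), TIF34 (46.6), WRS1 (40.5), MES1 (20.7), SES1 (20.7), CDC60 (5.09), GLN4 (4.49) and TIF4631 (0.56), and lower at GUS1 (-41.9) and SUP35 (-23.7). Keeping peaks with a fold of at least 2 gave -5.65 points for factors, -10.0 for synthetases and -10.1 for the opening segment, 4 genes lower in coverage and 4 in the opening segment, 2 with the later border, 12.5 for the factors' median percentile, and 38.9 points at SUI2. It left no percentile difference for synthetases, since no peak remained in 1 list. A −log10 q-value of at least 2 gave -1.28 for the factors' percentile in place of -6.19. With equal peak numbers, 14 genes were lower in coverage and 12 in the opening segment, the opening segment differed by -28.8, the factors' percentile by 2.28, and 1 gene was occupied in both Tfg1-HA lists only. Occupied at any overlap gave -11.5 genes and 6 in both Tfg1-HA lists only, and at 80% -11.5 and 4, against -5.5 and 2. For these changes of peak threshold, list length and occupied call, the share of all ORFs was not counted.

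Leaving out each list in turn gave -9 to -2 for genes occupied, -33.5 to -16.1 for factor and -34.5 to -14.8 for synthetase coverage, 2 to 7 genes occupied in Tfg1-HA only (7 without Tfg1-K60,61R-HA replicate 1 and 6 without Tfg1-HA replicate 1), 24 to 30 lower in coverage, -53.9 to -41.9 for the opening segment, 24 to 27 lower in it (16.2% to 24.1% of ORFs), 20 to 27 with the later border, -9.57 to -2.81 for the factors' percentile, and -8.62 to 6.59 for the synthetases' (2.39 without Tfg1-K60,61R-HA replicate 2, 6.59 without Tfg1-HA replicate 2), in place of -1.01. With the replicate number as a block (replicate block), 24 genes were lower in coverage, 22 in the opening segment and 21 had the later border, and the smallest sign-flip p of 2 pairs is 0.5. The numbers are not known to pair the samples: deviations of same-numbered lists correlated at 0.12 over ORFs. With a list left out, the share of all ORFs was counted for the opening segment only. The cause of these shifts was not tested.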

Other observations

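Genes related to those described were counted from lists chosen with earlier results known. Of 10 other initiation genes, among them the eIF2B subunit genes, 5 lay under a peak and 2 were occupied in any list, while 77.2% of all ORFs were occupied in no list. Of 5 further genes for cytosolic synthetases or their cofactor, 4 lay under a peak and 2 were occupied in any list. Of all 6002 ORFs, 2386 lay under a peak in any list. TIF6, which encodes a factor that keeps the ribosomal subunits apart, had 100% and 27% of its length under peaks in Tfg1-K60,61R-HA, against 100% and 100% in Tfg1-HA. CAF20, which encodes a protein that binds eIF4E and restrains it, had 47.3% and 36.8% in Tfg1-K60,61R-HA, against 82.9% and 85% in Tfg1-HA. Its opening segment was 0% and 0% covered in Tfg1-K60,61R-HA, against 31.4% and 39.7% in Tfg1-HA.

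ARC1, which encodes a cofactor that binds the methionyl and glutamyl enzymes, had 11.8% and 36.4% in Tfg1-K60,61R-HA, against 100% and 100% in Tfg1-HA. YHR020W, a prolyl-tRNA synthetase gene, had 3.68% and 0% in Tfg1-K60,61R-HA, against 16% and 100% in Tfg1-HA. It shared a peak with DED81 in both Tfg1-HA lists, so the values of these genes are not separate observations. None of 14 mitochondrial synthetase genes was occupied in any list, while 77.2% of all ORFs were occupied in no list. Of the 14, 5 were touched by a peak, against 2386 of all 6002 ORFs.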
